A study of Culex quinquefasciatus with 12 samples.

Results

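The change in the midgut response of *Culex quinquefasciatus* larvae between 6 and 18 h of exposure to Bin toxin was measured gene by gene, as the log2 ratio of toxin-treated over untreated RNA on the 4 arrays titled 18 h set against the same ratio on the 4 arrays titled 6 h. These 8 of the 12 arrays of the series, each with 2 colours, carried probes for 19751 genes with a CPIJ identifier, and all of these genes were compared. Third-instar larvae of the JHB strain, in replicates of 20, had been starved for 3 h and then fed BinA and BinB in equal molar amounts at 80 ng/ml, a dose the study chose to kill most larvae, for 6 or 18 h. Each time point had untreated larvae of its own as the control. Whether these were also starved is not given in the sources used here. Larvae that had survived to the time of collection were dissected, and 200 ng of pooled midgut RNA was labelled, with Cy3 for untreated and Cy5 for toxin-treated larvae on every array. A positive log2 ratio therefore means a higher level in toxin-treated midguts, and a positive difference means that the ratio was larger at 18 h than at 6 h.

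Bin is a toxin of 2 proteins made by the bacterium *Lysinibacillus sphaericus*. In *Culex* larvae, BinB binds an alpha-glucosidase on the surface of midgut cells, and the toxin is then taken up into the cells and damages the epithelium. The larval midgut secretes digestive enzymes, absorbs nutrients and detoxifies what the larva eats, and its cells keep up a high rate of protein synthesis, which depends on ribosome assembly in the nucleolus and on folding in the endoplasmic reticulum (ER).

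No array held swapped dyes, and a dye effect that is constant for a gene cancels between the time points. It does not cancel in the ratio at 1 time point. The calls at 6 h or at 18 h alone, the reversals and the distance from the control may therefore include it. All 4 arrays at 6 h shared a slide and a scan, as did those at 18 h, and slide and exposure time cannot be told apart. Between 72.8% and 88.5% of the spots on the 12 arrays were well above background in the untreated channel and 75.4% to 85.1% in the toxin channel. Across genes, the log2 ratios of arrays of 1 time point correlated with Pearson's r of 0.598 to 0.84, and those of a 6 h and an 18 h array with r of 0.23 to 0.551. The untreated channels of 1 time point were closer to each other than the toxin channels. Over 29391 bright spots, the unnormalized log2 signals of the 4 untreated channels correlated with r of 0.996 to 0.998 at 6 h and 0.996 to 0.999 at 18 h, and those of the toxin channels with r of 0.974 to 0.989 and 0.979 to 0.988. The median SD of a gene's level over 4 arrays was 0.069 for untreated and 0.163 for toxin at 6 h, and 0.05 and 0.138 at 18 h. Whether the 4 untreated RNAs of a time point came from separate pools of larvae is not given in the sources used here, and the p-values may leave out part of the spread between control larvae.

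The response differed between the times for 880 genes. The log2 ratio was larger at 18 h for 558 genes, or 2.83% of all genes tested, and smaller for 322 genes, or 1.63%, together 4.46% (limma with Benjamini-Hochberg adjustment over 19751 genes; a call needed an adjusted p under 0.05 together with a log2 difference of 0.75 or more, which is 1.68-fold). The 4 arrays at 18 h lay wholly above the 4 at 6 h for 545 of the 558 genes and wholly below them for 303 of the 322. Over all genes, 12.8% lay wholly above and 10.2% wholly below. Every called gene had at least 2 probes, and all probes of each called gene differed in the called direction. Fewer cells of a type and less RNA per cell cannot be told apart in such pooled tissue. The share of larger ratios among the calls was 63.4% after loess and 83.8%, with 965 larger and 187 smaller, when each array was centred on its median instead. The genes nearest the threshold were CPIJ002449, just inside with a difference of 0.7501, and CPIJ005987, just outside with 0.7494.

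Most of the larger ratios belonged to genes that were below the control at 6 h. Of the 558 genes, 274 were called lower in toxin-treated midguts at 6 h (3.2% of all genes were) and not called at 18 h, and their median log2 ratio went from -1.11 at 6 h to 0.02 at 18 h. A further 98 genes were called higher only at 18 h (2.42% of all genes were called higher then), with medians of -0.01 and 1.02. Of the remaining genes, 170 were called at neither time, 7 were called lower at both times, 2 higher at both times, and 7 changed from lower to higher. The median over the 558 genes went from -0.77 at 6 h through -0.43 at 12 h to 0.28 at 18 h, and the 12 h mean lay between the other 2 means for 403 genes.

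The smaller ratios came in equal numbers from genes that had been higher early and genes that were lower late. Of the 322 genes, 103 were called higher only at 6 h (2.24% of all genes were called higher then), with medians of 1.17 and 0.12, and 103 were called lower only at 18 h (1.79% of all genes), with medians of -0.07 and -1.25. Of the others, 88 were called at neither time, 17 were higher at both times, 8 were lower at both times and 3 changed from higher to lower. The 12 h mean lay between the other 2 for 251 of the 322. Of all 880 called genes, 560 (63.6%) had a mean ratio closer to 0 at 18 h than at 6 h, and 542 had means of opposite sign. Calling genes by a large difference between the times by itself favours means of opposite sign and a 12 h mean in between. The shares of these counts over all genes are not given here, so the counts only describe the called genes. 

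**Figure D1:**
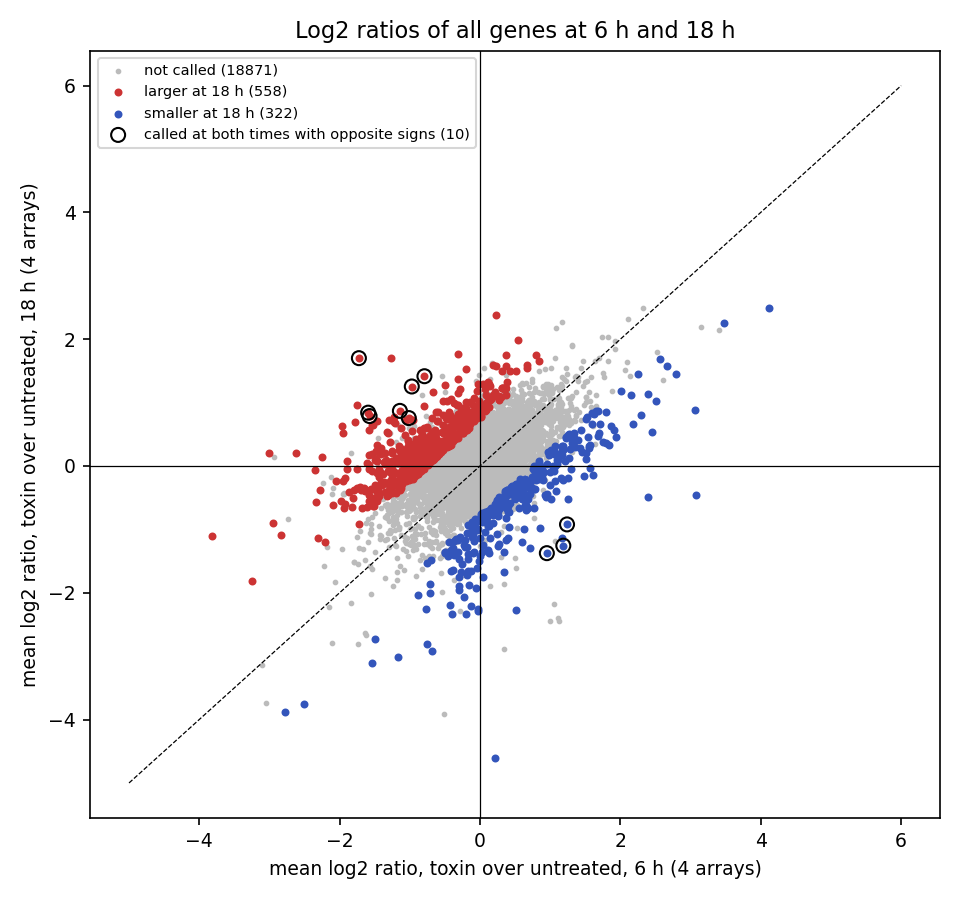
Mean log2 ratio of toxin over untreated at 6 h (horizontal) and 18 h (vertical), 1 point a gene, each the mean of 4 arrays. The dashed line marks equal ratios; 558 genes called larger at 18 h lie above it, 322 called smaller lie below it, and circles mark the 10 genes called at both times with opposite signs.

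Genes that reversed direction were few at this threshold, and several of the named ones belong to the nucleolus. The 7 genes called lower at 6 h and higher at 18 h included nucleolar protein NHP2 and H/ACA ribonucleoprotein complex subunit 4, which in other eukaryotes are parts of the complex that converts uridine to pseudouridine in ribosomal RNA. NHP2 (CPIJ005033) had log2 ratios of -1.35, -1.62, -1.81 and -1.59 at 6 h and of 1.05, 0.83, 0.69 and 0.80 at 18 h. All 4 arrays were below 0 at 6 h and above 0 at 18 h, and the ratio was 5.4-fold larger at 18 h (difference 2.43, SE 0.10, limma adjusted p = 3.22e-07). H/ACA ribonucleoprotein complex subunit 4 (CPIJ000795) had ratios of -1.84, -1.36, -1.48 and -1.61 at 6 h and of 0.81, 1.16, 0.69 and 0.50 at 18 h, a difference of 2.36 (SE 0.17, limma adjusted p = 1.02e-05). Cell growth-regulating nucleolar protein (CPIJ012225) had ratios of -1.18, -1.13, -1.26 and -0.99 at 6 h and of 1.04, 1.02, 0.64 and 0.78 at 18 h, a difference of 2.01 (SE 0.11, limma adjusted p = 2.03e-06). For these 3 genes the 12 h means were -0.05, 0.04 and -0.04, close to the control and between the other times. Another gene named H/ACA ribonucleoprotein complex subunit 4 (CPIJ006466) was not called at 18 h and is not among the reversals. Its mean ratio went from -1.48 to 0.24, a difference of 1.715 (limma adjusted p = 4.73e-06). WD repeat protein 12 (CPIJ001500), a ribosome assembly factor in yeast and mammals that was singled out after its values were seen, went from -1.01 ± 0.13 to 0.76 ± 0.27 (SD, n = 4 arrays; limma adjusted p = 5.83e-06).

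The other 3 genes of this group are hypothetical proteins. The conserved hypothetical protein CPIJ008664 had ratios of -1.65, -2.13, -1.19 and -1.93 at 6 h and of 1.83, 1.28, 0.74 and 2.95 at 18 h, and its difference of 3.43 (SE 0.55, limma adjusted p = 0.00147) was the largest of all genes. It was already above the control at 12 h, with a mean of 1.77. The hypothetical protein CPIJ015882 went from -0.97 ± 0.30 to 1.25 ± 0.24 (SD, n = 4 arrays) and the conserved hypothetical protein CPIJ011188 from -0.79 ± 0.48 to 1.42 ± 0.67. Neither gene's arrays overlapped between the times.

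The 3 genes called higher at 6 h and lower at 18 h were regucalcin, N-acetyl neuraminate lyase and a conserved hypothetical protein. Regucalcin (CPIJ007230), a calcium-binding protein in mammals, had ratios of 0.60, 1.52, 1.28 and 0.41 at 6 h and of -0.80, -1.11, -1.34 and -2.25 at 18 h, a difference of -2.33 (SE 0.43, limma adjusted p = 0.00312). N-acetyl neuraminate lyase (CPIJ000182), which splits sialic acid, had ratios of 0.73, 1.36, 1.27 and 1.60 at 6 h and of -1.36, -1.02, -0.54 and -0.76 at 18 h, a difference of -2.16 (SE 0.23, limma adjusted p = 0.000109). The conserved hypothetical protein CPIJ004816 had ratios of 0.68, 0.94, 1.16 and 1.97 at 6 h and of -1.75, -1.42, -0.90 and -0.96 at 18 h, a difference of -2.44 (SE 0.33, limma adjusted p = 0.000455). All 3 were already below the control at 12 h, with means of -0.83, -0.46 and -0.75.

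**Figure D2:**
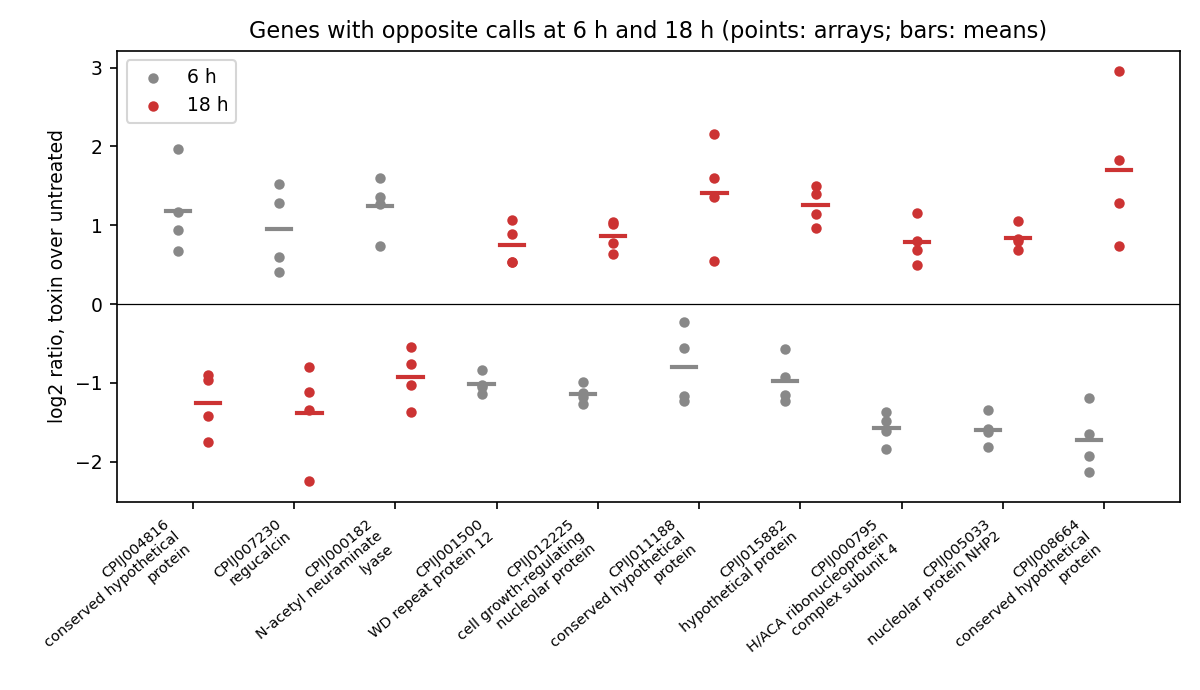
Log2 ratio of toxin over untreated on each array (points) for the 10 genes called at both times with opposite signs, with the mean of 4 arrays at 6 h and at 18 h as a bar. No gene's arrays overlap between the times, and all arrays of a gene lie on 1 side of 0 at each time.

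The number of reversals depended on the fold threshold. With an adjusted p under 0.05 at both times and for the difference but no minimum size, 300 genes (1.52% of those tested) went from lower to higher, with medians of -0.42 and 0.33, and 170 (0.861%) from higher to lower, with medians of 0.27 and -0.26. The 300 included 7 of 18 genes of ribosome biogenesis, 4 of 46 mitochondrial ribosomal proteins and 3 of 13 mitochondrial import translocases, and no gene of the digestive or detoxification lists. The 170 included 4 of 90 cytochrome P450s, 4 of 21 lipases, 2 of 26 glutathione S-transferases and 2 of 6 vacuolar ATPase subunits. The count of lower-to-higher reversals at the full threshold was 14 without 18 h replicate 3 and 11 without 18 h replicate 4.

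The gene lists that follow were made from names in the study's table of responsive genes, which was compiled from these same arrays, and they are not independent evidence of a response. Of the 3780 genes of that table, 407 had a larger and 277 a smaller ratio at 18 h, together 18.1%, and this share and the 2.83% and 1.63% of all genes are the background for the counts below. Over all genes the median difference was 0.00. Counts at an unadjusted p, given for some lists below, have a wider background than these shares. At an adjusted p under 0.05 with no minimum size, 2203 of the 19751 genes had a larger and 1673 a smaller ratio. An unadjusted p under 0.05 passes at least as many, and its share over all genes is not given here, for the ratios or for the toxin channel.

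Among the 34 gene lists, ribosome biogenesis and ribosomal RNA processing had the highest share of larger ratios. The ratio was larger at 18 h for 16 of 18 genes and smaller for 0, and all 18 differences were positive. The median log2 ratio went from -0.64 at 6 h to 0.48 at 18 h, with a median difference of 0.93. At 6 h, 7 of the 18 were called lower, and at 18 h, 7 were called higher. Besides NHP2 and the nucleolar protein above, the 16 included nucleolar essential protein 1 (CPIJ004309), a methyltransferase of ribosome assembly in yeast, which went from -1.46 to 0.33, and IMP3 (CPIJ017520), part of the U3 small nucleolar ribonucleoprotein, which went from -1.11 to 0.07. Both copies of nucleolar GTP-binding protein 2, an export factor of the large ribosomal subunit in yeast, were called higher at 18 h, with mean ratios of 1.105 for CPIJ001254 and 1.30 for CPIJ005364. Under the alternative settings at the same threshold, between 12 and 16 of the 18 genes had a larger ratio and 0 a smaller one. At an unadjusted limma p under 0.05, all 18 had a larger ratio, and all 18 were higher in the toxin channel alone.

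The ratios above do not show which of the samples changed, and the levels in each channel were therefore set side by side on the log2 scale after normalization of both channels across arrays. A slide effect on a gene that both channels share cancels in the ratio but not in these levels. For the 558 genes with a larger ratio, the untreated level was lower at 18 h by a median of 0.62 and the toxin level was higher by a median of 0.46, and the untreated level had the larger change for 333 genes (59.7%). For the 274 genes called lower only at 6 h, the untreated level had the larger change in 225 (82.1%), with a median change of -0.85 in untreated and 0.29 in toxin-treated midguts. For the 98 genes called higher only at 18 h, the toxin level had the larger change in 83. For the 322 genes with a smaller ratio, the untreated level went up by a median of 0.82 and the toxin level went down by a median of 0.26, and the untreated level had the larger change for 229 (71.1%). Over all genes the untreated level had the larger change for 44.7%. Quantile normalization of the channels in place of this one gave 59.9% and 71.7% for the called groups.

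The toxin channel was also tested alone at 18 h against 6 h, a comparison that mixes toxin exposure with the age of the larvae and with the slide and scan. In it, 525 genes were higher (2.66%) and 746 lower (3.78%) by the same limma threshold. Of the 558 genes with a larger ratio, 125 were also higher in the toxin channel and 5 were lower. Of the 322 with a smaller ratio, 48 were also lower and 1 was higher. The remaining genes of both groups did not pass the test in the toxin channel, which does not show that their level there was constant.

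**Figure D3:**
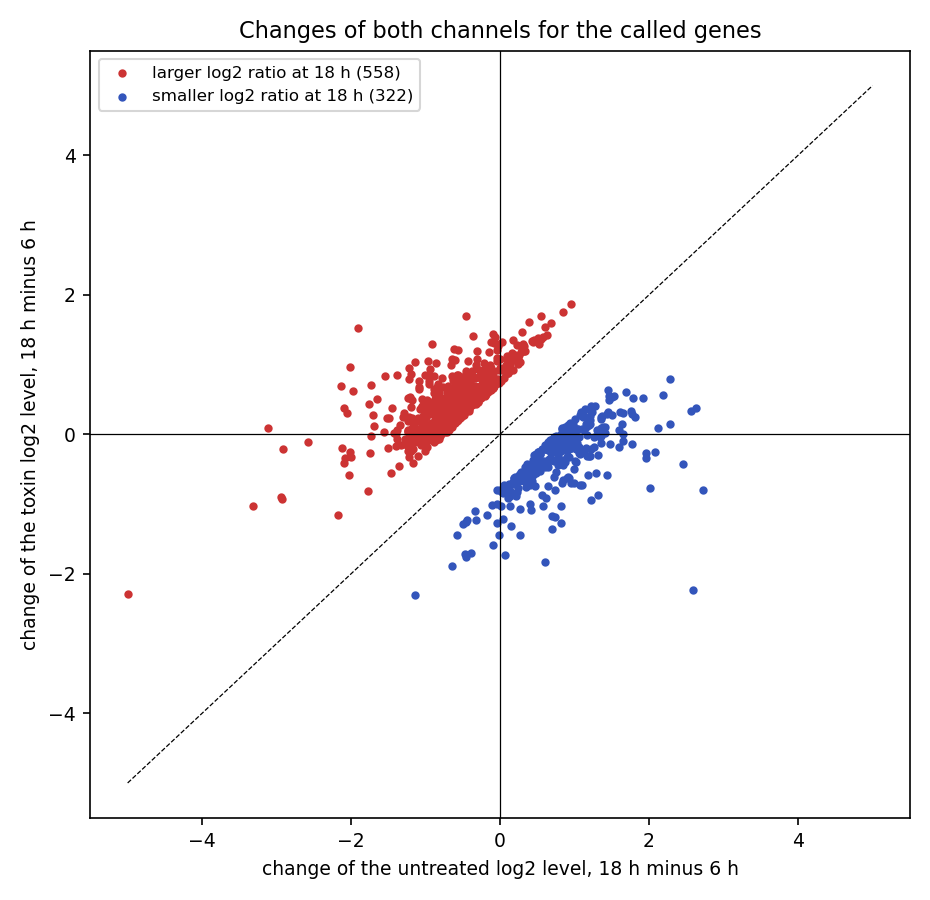
Change of the normalized log2 level from 6 to 18 h in the untreated channel (horizontal) and the toxin channel (vertical) for the 880 called genes, 1 point a gene, means of 4 arrays a time. Genes with a larger ratio (558) lie mostly to the left, where the untreated level was lower at 18 h, and genes with a smaller ratio (322) mostly to the right; the dashed line marks equal change.

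In ribosome biogenesis the toxin channel itself was higher at 18 h. In that channel alone, 8 of 18 genes were called higher and 0 lower, and none of the 18 mean levels was lower. The median change over the list was 0.73 in the toxin channel and -0.48 in the untreated channel. The level of cell growth-regulating nucleolar protein went from 12.71 to 11.75 in untreated and from 11.57 to 12.62 in toxin-treated midguts, and the toxin channel passed its own test (change 1.05, limma adjusted p = 4.72e-05). For NHP2 the untreated level went from 12.82 to 11.09 and the toxin level from 11.23 to 11.93, a toxin-channel change of 0.71 that fell short of the 0.75 threshold (limma adjusted p = 0.000572). For H/ACA ribonucleoprotein complex subunit 4 the untreated level went from 11.03 to 8.98 and the toxin level from 9.46 to 9.77 (limma adjusted p = 0.212). In all 3 genes the untreated mean went down and the toxin mean went up, with the larger change in the untreated channel for NHP2 and subunit 4 and in the toxin channel for the nucleolar protein. The levels given for subunit 4 are those of CPIJ000795. The other gene of that name, CPIJ006466, was called higher in the toxin channel (change 0.76, limma adjusted p = 0.000462).

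Some genes of ER folding and translocation, the proteasome and the mitochondrion had larger ratios at 18 h, and the list medians were below 0 at both times and nearer to it at 18 h. Of the 20 ER genes, 9 had a larger and 0 a smaller ratio at 18 h, with list medians of -0.99 and -0.32. Calreticulin (CPIJ007376), a calcium-binding chaperone of the ER, had ratios of -2.003, -2.37, -2.49 and -2.46 at 6 h and of -0.94, -0.92, -0.19 and -0.25 at 18 h, a difference of 1.76 (SE 0.18, limma adjusted p = 9.39e-05). Every array was below the control at both times, and the times did not overlap. The gamma subunit of Sec61 (CPIJ005137), part of the channel through which new proteins enter the ER, had ratios of -1.38, -1.53, -1.43 and -1.56 at 6 h and of -0.11, -0.06, 0.28 and 0.31 at 18 h (difference 1.58, SE 0.16, limma adjusted p = 7.92e-05). The other 7 ER genes with a larger ratio included the chaperones endoplasmin (CPIJ002384, -1.47 to -0.11) and calnexin (CPIJ009164, -0.82 to -0.01) and the delta subunit of the translocon-associated protein (CPIJ002043, -1.63 to -0.40).

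Of the 29 proteasome genes, which encode the complex that degrades ubiquitin-tagged proteins, 9 had a larger and 0 a smaller ratio, with medians of -0.85 and -0.30. At 6 h, 17 of the 29 were called lower. The beta-type subunit gene CPIJ001361 had ratios of -1.75, -1.65, -1.34 and -1.15 at 6 h and of -0.46, -0.38, -0.65 and -0.69 at 18 h, a difference of 0.93 (SE 0.13, limma adjusted p = 0.000558). Proteasome activator complex subunit 3 (CPIJ003165), a regulator of the core particle, followed another course and was called higher at 18 h, with ratios of 0.39, 0.11, -0.04 and 0.29 at 6 h and of 1.22, 1.17, 1.03 and 1.07 at 18 h (limma adjusted p = 0.000598). The count of 9 lay close to the threshold and was 16 with median centring, 3 with scale normalization between arrays, 2 with the scanner software's log ratio and 5 without 6 h replicate 1.

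In both mitochondrial lists the called genes had larger ratios, and most genes were not called. Of 13 import translocases, which carry proteins into the mitochondrion, 6 had a larger and 0 a smaller ratio, with medians of -0.81 and -0.22. Tim23 (CPIJ010413), the channel of the inner membrane, had ratios of -0.76, -0.82, -0.86 and -0.79 at 6 h and of 0.51, 0.32, 0.39 and 0.52 at 18 h, a difference of 1.24 (SE 0.07, limma adjusted p = 2.03e-06), while Tim22 (CPIJ013823), the channel for carrier proteins, went from -1.11 ± 0.09 to -0.22 ± 0.12 (SD, n = 4 arrays). The count of 6 was 3 without 6 h replicate 2, 3 without 18 h replicate 2, 2 without replicate 3 of both times and 10 with median centring. Of 46 mitochondrial ribosomal proteins, 8 had a larger and 0 a smaller ratio. The share called in either direction, 17.4%, is close to the 18.1% of the study's table. In that table, 407 of 3780 genes had a larger and 277 a smaller ratio. Of the 46, 13 were called lower at 6 h, 45 of the 46 differences were positive, and the medians were -0.53 and -0.13. Protein L11 of the large subunit (CPIJ013673) went from -1.49 ± 0.25 to -0.30 ± 0.12 and S31 (CPIJ011366) from -1.19 ± 0.15 to -0.11 ± 0.18. The count of 8 was 17 with median centring and 5 with the scanner software's log ratio. In the ER, proteasome, import and mitochondrial ribosome lists, 0 genes passed the test in the toxin channel alone in either direction, and the untreated level had the larger change for 18 of 20, 26 of 29, 11 of 13 and 41 of 46 genes. At an unadjusted limma p under 0.05 with no minimum size, 4, 4, 3 and 5 of these genes were higher and 5, 6, 2 and 17 lower in the toxin channel, and 2, 0, 0 and 0 had a smaller ratio.

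**Figure D4:**
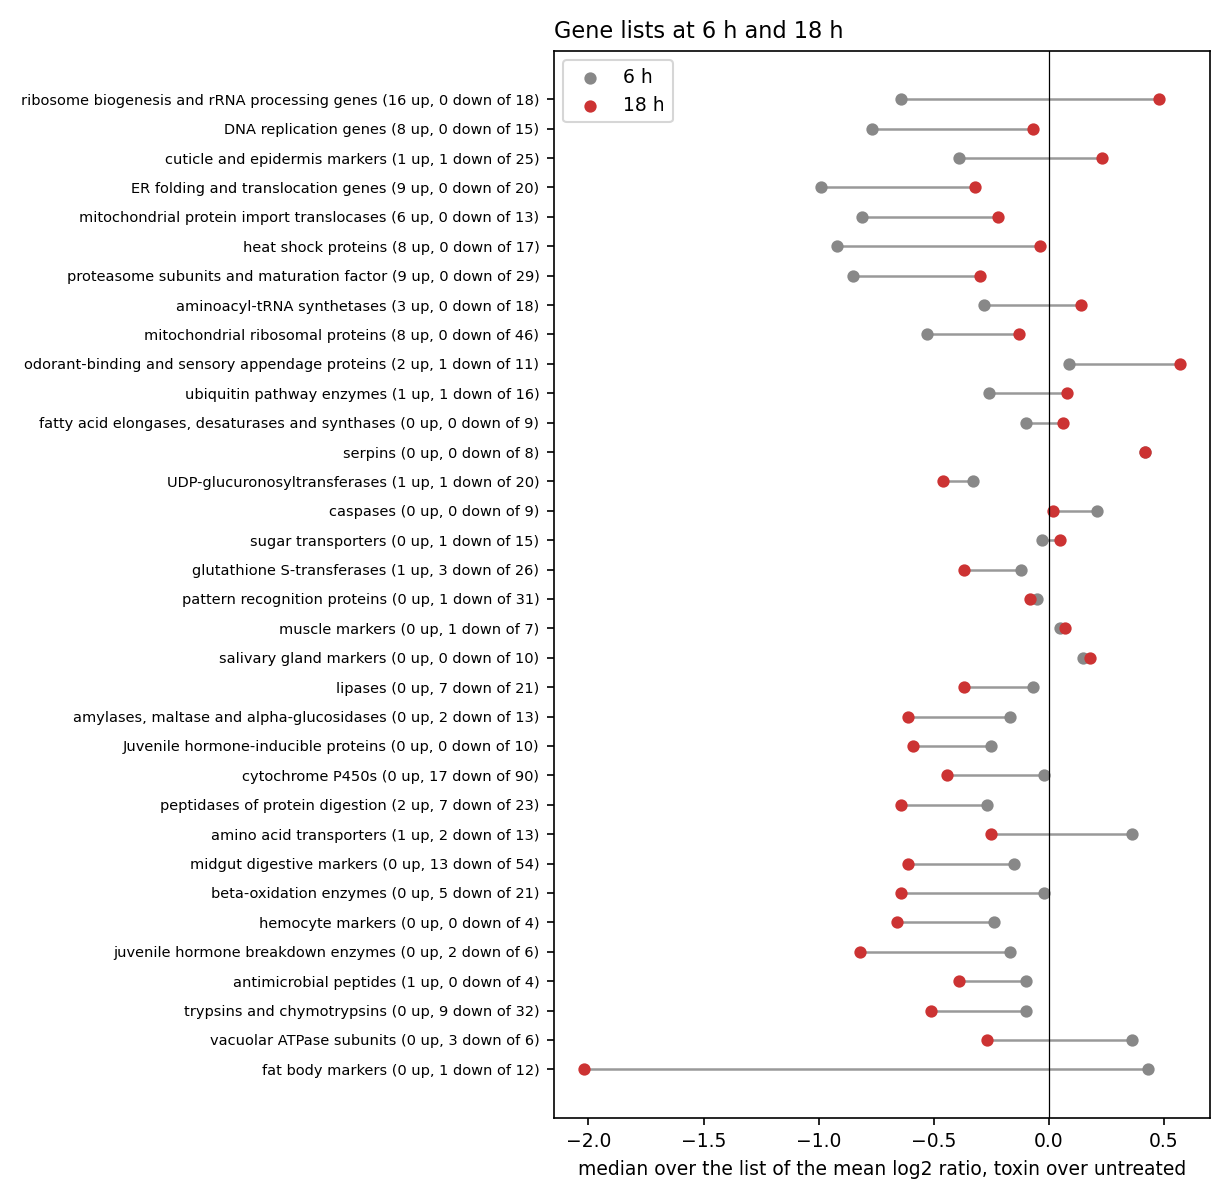
Median over each gene list of the mean log2 ratio of toxin over untreated at 6 h and at 18 h; the counts give genes called larger (up) and smaller (down) at 18 h of all list members. The ribosome biogenesis list goes from -0.64 to 0.48, and fat body markers go from 0.43 to -2.02 with 1 gene called; lists are ordered by their median difference.

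About as many DNA replication and heat shock genes had a larger ratio at 18 h as did not pass the test. Of 15 DNA replication genes, 8 had a larger and 0 a smaller ratio, with medians of -0.77 and -0.07. Proliferating cell nuclear antigen (CPIJ009046), the sliding clamp of DNA polymerase, had ratios of -1.48, -1.77, -1.74 and -1.17 at 6 h and of 0.25, -0.07, -0.53 and 0.01 at 18 h, a difference of 1.45 (SE 0.16, limma adjusted p = 0.000154). Its untreated level went from 11.41 to 10.02 and its toxin level from 9.87 to 9.93, so that both samples ended at about the same level. MCM4 (CPIJ010887), a subunit of the replicative helicase, went from -1.86 ± 0.10 to -0.40 ± 0.36 (SD, n = 4 arrays; limma adjusted p = 0.000231). The MCM4 call was lost when normexp was fitted on all spots (adjusted p = 0.0991) and with the deposited log ratios (0.118), and the list's count was then 4 and 3. At an unadjusted limma p under 0.05, 14 of the 15 genes had a larger and 1 a smaller ratio.

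Of 17 heat shock proteins, which are chaperones, 8 had a larger and 0 a smaller ratio, with medians of -0.92 and -0.04. Heat shock protein CPIJ007228 had ratios of -1.97, -2.27, -1.99 and -1.38 at 6 h and of -0.23, -0.30, 0.26 and 0.59 at 18 h, a difference of 1.98 (SE 0.23, limma adjusted p = 0.00021). Its untreated level went from 15.96 to 14.25, and its toxin level was 14.06 at 6 h and 14.33 at 18 h (toxin channel, limma adjusted p = 0.327). Heat shock protein 83 (CPIJ015075), of the Hsp90 family, had ratios of -2.66, -2.85, -2.05 and -1.54 at 6 h and of -0.78, -0.34, -0.92 and 0.50 at 18 h (difference 1.89, SE 0.41, limma adjusted p = 0.00843). The 8 genes included 3 copies named heat shock protein 83 and 1 named heat shock protein 82, which may share sequence, and their probes may not measure them apart. Among 18 aminoacyl-tRNA synthetases, which charge tRNAs, 3 had a larger ratio, and 2 of these, lysyl-tRNA synthetase (CPIJ017452, -0.47 to 1.03) and the bifunctional enzyme (CPIJ016709, -0.21 to 0.92), were called higher at 18 h and also higher in the toxin channel alone.

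Several digestive enzymes had smaller ratios at 18 h. Of 32 trypsins and chymotrypsins, 9 had a smaller and 0 a larger ratio at 18 h, with medians of -0.10 and -0.51, and 26 of 32 differences were negative. Chymotrypsinogen 2 (CPIJ006544) had ratios of 2.01, 2.12, 4.26 and 3.93 at 6 h and of -1.49, -0.81, 0.21 and 0.28 at 18 h, a difference of -3.53 (SE 0.65, limma adjusted p = 0.0033), as its untreated level went from 8.18 to 10.91 and its toxin level from 11.26 to 10.45. Chymotrypsinogen CPIJ002138 had ratios of -0.38, -0.10, 0.56 and -0.59 at 6 h and of -2.82, -1.92, -1.77 and -2.33 at 18 h, a difference of -2.08 (SE 0.31, limma adjusted p = 0.000873). Here the toxin level itself was lower at 18 h, at 13.45 against 14.72 (limma adjusted p = 0.00463), while the untreated level went from 14.84 to 15.66. In the toxin channel alone 7 of the 32 genes were lower and 1 higher. At an unadjusted limma p under 0.05, 13 of the ratios were smaller and 1 larger.

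Of 23 peptidases of protein digestion, 7 had a smaller ratio and 2 a larger one. All 7 were carboxypeptidases, which remove amino acids from the ends of peptides. Prolylcarboxypeptidase (CPIJ008878), by its name also a carboxypeptidase, was 1 of the 2 with a larger ratio (difference 2.70). Carboxypeptidase B (CPIJ010801) had ratios of -0.77, -0.36, -0.16 and -0.41 at 6 h and of -2.26, -2.46, -2.10 and -1.94 at 18 h, a difference of -1.76 (SE 0.13, limma adjusted p = 1.25e-05). This call was lost with the deposited log ratios (adjusted p = 0.0554) and with normexp fitted on all spots (0.06), where the counts of smaller ratios were 4 of the 23 peptidases and 4 of the 21 lipases. Of 21 lipases, 7 had a smaller and 0 a larger ratio, among them bile salt-activated lipase (CPIJ007828, 0.38 ± 0.29 to -0.83 ± 0.22, SD, n = 4 arrays) and lipase member I (CPIJ004216, 0.11 ± 0.08 to -0.95 ± 0.07). Lipase member I was not well above background on 2 untreated arrays and 1 toxin array at 6 h, and it lost its call in those same settings (adjusted p = 0.0738 and 0.0838). Of the 21 lipases, 4 were saturated and 1 was not well above background on every array of a group, and 2 of the 7 called lipases were among the saturated ones. Of 13 amylases, maltase and alpha-glucosidases, 2 had a smaller ratio, but 7 of the 13, 1 of the called genes among them, were saturated on every array of a group and their differences are limited by that. Alpha-glucosidase CPIJ008904 had ratios of -0.37, -0.44, -0.04 and 0.17 at 6 h and of -2.29, -2.15, -1.01 and -1.17 at 18 h (difference -1.48, SE 0.28, limma adjusted p = 0.00365). Its untreated level was 13.84 and 13.74, and its toxin level went from 13.67 to 12.09 (limma adjusted p = 0.00118). By these levels the change lay almost wholly in the toxin channel, but a slide effect on the levels cannot be told apart from it. Over the 54 midgut digestive markers together, the mean log2 level lay between 12.67 and 12.72 on the untreated and 12.51 and 12.77 on the toxin arrays at 6 h, and between 12.83 and 12.92 and 12.09 and 12.48 at 18 h.

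Cytochrome P450s, the oxidases of xenobiotics and hormones, were the longest list, and 17 of them had smaller ratios at 18 h. None of the 90 had a larger ratio, and the medians were -0.02 and -0.44. Cytochrome P450 9b2 (CPIJ012470) had ratios of 0.00, 0.41, 0.72 and 0.49 at 6 h and of -1.27, -1.31, -0.88 and -1.06 at 18 h, a difference of -1.53 (SE 0.15, limma adjusted p = 5.82e-05), and was also lower in the toxin channel alone (limma adjusted p = 0.000755). Cytochrome P450 4d10 (CPIJ009474) had ratios of 1.77, 1.75, 1.97 and 1.84 at 6 h and of 0.36, 0.14, 0.45 and 0.35 at 18 h, a difference of -1.51 (SE 0.09, limma adjusted p = 3.89e-06), as its untreated level went from 13.72 to 14.92 and its toxin level from 15.55 to 15.24. The first of these genes thus passed from near the control's level to below it, and the second went from above the control toward it. The toxin level of the second at 6 h includes 1 array on which all spots of the gene were saturated. At 18 h, 23 of the 90 were called lower and 5 higher, against 12 lower and 10 higher at 6 h. Of the 3780 genes in the study's table, 326 were called lower and 311 higher at 18 h, against 604 and 383 at 6 h. At an unadjusted limma p under 0.05, 39 of the 90 differences were smaller and 7 larger. With median centring, 11 of the 90 had a smaller and 2 a larger ratio, and with the scanner software's log ratio 27 had a smaller one.

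Glutathione S-transferases, which couple toxic compounds to glutathione, were mixed, with 3 of 26 smaller and 1 larger at 18 h, and the sign of their median difference of -0.06 turned with median centring. Glutathione S-transferase theta CPIJ014052 went from 1.02 ± 0.12 to -0.52 ± 0.50 (SD, n = 4 arrays; limma adjusted p = 0.000861). Glutathione S-transferase theta-2 (CPIJ002679) went the other way, with ratios of -3.61, -3.53, -2.92 and -2.93 at 6 h and of -1.07, -1.82, -2.58 and -1.75 at 18 h (difference 1.44, SE 0.28, limma adjusted p = 0.00421). Its level was lower at 18 h in both channels, from 14.14 to 12.12 in untreated and from 10.89 to 10.31 in toxin-treated midguts. This call was lost with scale normalization (adjusted p = 0.0792). Of 20 UDP-glucuronosyltransferases, 1 had a larger and 1 a smaller ratio.

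Some genes of energy and ion handling had smaller ratios at 18 h. Of 21 enzymes of beta-oxidation, which breaks down fatty acids, 5 had a smaller and 0 a larger ratio, with medians of -0.02 and -0.64. Acyl-CoA oxidase CPIJ003059 went from 0.39 ± 0.36 to -0.73 ± 0.11 and acyl-CoA oxidase CPIJ003061 from 0.26 ± 0.14 to -0.79 ± 0.35 (SD, n = 4 arrays). In the toxin channel alone, 4 of the 21 were lower and 0 higher, and with median centring 2 of the 21 ratios were called smaller. Of 6 subunits of the vacuolar ATPase, the proton pump of midgut membranes, 3 had a smaller ratio and all 6 differences were negative, with medians of 0.36 and -0.27. Subunit F (CPIJ016432) had ratios of 0.73, 0.66, 0.28 and 0.45 at 6 h and of -0.17, -0.22, -0.44 and -0.34 at 18 h (difference -0.82, SE 0.11, limma adjusted p = 0.000607), with untreated levels of 14.44 and 14.45 and toxin levels of 14.97 and 14.16 (limma adjusted p = 1.42e-05). With median centring 0 of the 6 subunits were called. Subunit B (CPIJ014699) went from 0.31 ± 0.45 to -0.60 ± 0.23, and its call was lost without replicate 3 of both times (adjusted p = 0.0515).

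Of 6 enzymes that break down juvenile hormone, the hormone that holds insects in the larval state, 2 had a smaller ratio. Juvenile hormone epoxide hydrolase 1 (CPIJ000992) had ratios of -0.99, -1.06, 0.14 and 0.26 at 6 h and of -1.76, -1.75, -1.41 and -1.72 at 18 h (difference -1.24, SE 0.28, limma adjusted p = 0.01). The 6 h arrays fell into a lower and a higher pair, and all 4 lay above the 18 h arrays. Juvenile hormone esterase (CPIJ002073) went from -0.10 ± 0.68 to -1.08 ± 0.25 (SD, n = 4 arrays; limma adjusted p = 0.0358), and its call was lost without any one of 6 h replicates 3 and 4 and 18 h replicates 1, 2 and 4 (adjusted p = 0.0384 to 0.0878, the lowest with a difference of -0.67) and in a fit of the 8 arrays alone (0.0707). Both genes were lower at 18 h in the toxin channel alone, by 1.71 and 1.15 on the log2 scale (limma adjusted p = 0.000615 and 0.0131). Of 10 juvenile hormone-inducible proteins, 0 were called, and 5 had a smaller ratio at an unadjusted limma p under 0.05.

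Among transporters, the sodium/solute symporter CPIJ002361 had ratios of 1.94, 2.84, 3.50 and 3.96 at 6 h and of 0.22, 0.38, 1.38 and 1.57 at 18 h, a difference of -2.18 (SE 0.46, limma adjusted p = 0.00693). All spots of this gene were saturated on 1 toxin array at 6 h. Of 13 amino acid transporters, 2 had a smaller and 1 a larger ratio, and both smaller calls were fragile. Amino acid transporter CPIJ011039 (1.56 ± 0.76 to 0.34 ± 0.17, SD, n = 4 arrays; limma adjusted p = 0.0473) lost its call without any one of 6 h replicates 2, 3 and 4 and of the 4 arrays at 18 h (adjusted p = 0.05 to 0.105). The sodium/chloride-dependent transporter CPIJ012066 (0.85 ± 0.49 to -0.98 ± 0.77; limma adjusted p = 0.032) lost its call without 6 h replicate 2 or 3 or 18 h replicate 1 or 2 (0.0777 to 0.0878). Of 15 sugar transporters, 1 had a smaller ratio (CPIJ008941, -0.12 ± 0.42 to -1.12 ± 0.37). That call was lost without replicate 3 of both times (adjusted p = 0.0518) and with normexp on all spots or the deposited log ratios (0.159 and 0.149). Phosphatidylcholine-sterol acyltransferase (CPIJ010979), by its name an enzyme and not a transporter, had a tight difference, with ratios of 2.19, 2.64, 2.60 and 2.12 at 6 h and of -0.77, -0.54, -0.32 and -0.35 at 18 h (difference -2.88, SE 0.14, limma adjusted p = 1.17e-06). Its untreated level went from 8.70 to 11.15, and its toxin level was 11.08 and 10.65.

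The most negative difference of all genes was that of a storage protein, and its call lay close to the threshold. Hexamerin 2 beta (CPIJ009506), a storage protein that the fat body of insects makes, had ratios of 1.63, 1.82, -0.05 and -2.52 at 6 h and of -4.11, -4.04, -5.28 and -4.97 at 18 h, a difference of -4.82 (SE 1.30, limma adjusted p = 0.0243). The 6 h arrays ranged over more than the threshold in both directions, while all 18 h arrays lay at -4.04 or below. The call was lost without any one of 6 h replicates 1, 2 and 3 and 18 h replicates 3 and 4 (adjusted p = 0.0514 to 0.0691) and without replicate 3 of both times (0.104), while the difference itself stayed between -4.29 and -4.91. The untreated level went from 11.49 to 14.07, and the toxin level was 11.71 ± 2.02 at 6 h and 9.47 ± 0.60 at 18 h (SD, n = 4 arrays; toxin channel, limma adjusted p = 0.189).

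Markers of other tissues that a dissected midgut can carry were measured beside these results. The 12 fat body markers had a median difference of -2.23, all 12 differences were negative, and 1 was called. The count was 5 without 6 h replicate 4 and with scale normalization, and 0 without any one of 6 h replicates 1, 2 and 3 and 18 h replicates 3 and 4, with normexp fitted on all spots and with the deposited log ratios. Their mean log2 level per array lay between 10.72 and 10.93 in the untreated channel at 6 h and between 12.9 and 13.03 at 18 h. In the toxin channel it was 12.62, 12.93, 10.35 and 9.04 at 6 h and 11.03, 12.28, 10.28 and 10.74 at 18 h. The untreated fat body signal was thus higher at 18 h on every array, and the toxin arrays at 6 h ranged more widely than those at 18 h. Of the 7 muscle, 4 hemocyte and 10 salivary gland markers, 1 muscle gene was called, with a smaller ratio: paramyosin (CPIJ002902), of the thick filaments, went from 0.55 ± 0.18 to -0.31 ± 0.20 (SD, n = 4 arrays), and its call was lost with 4 other settings, in which the difference lay between -0.59 and -0.74. The muscle marker level was 10.21 to 10.31 in the untreated and 10.21 to 10.57 in the toxin channel at 6 h, and 10.39 to 10.48 and 10.29 to 10.58 at 18 h. The hemocyte level was 11.44 to 11.58 and 11.05 to 11.75 at 6 h and 11.95 to 12.08 and 11.2 to 11.54 at 18 h, and phenoloxidase subunit 1 (CPIJ016566) had the largest difference of its 4 genes, -1.14 (limma adjusted p = 0.0598). The salivary gland level was 9.36 to 9.48 in the untreated and 9.47 to 9.57 in the toxin channel at 6 h. At 18 h it was 9.49 to 9.59 and 9.47 to 10.05. The part of these tissues in the gene results was not tested.

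Cuticle markers had lower levels at 18 h than at 6 h on all untreated arrays and differed among the toxin arrays. The mean log2 level of 25 cuticle and epidermis markers lay between 8.86 and 9.03 on the untreated arrays at 6 h and between 7.8 and 7.95 at 18 h. In the toxin channel it lay between 8.07 and 9.14 at 6 h and between 7.63 and 8.81 at 18 h, where replicate 4 was the highest. Of the 25 differences in ratio, 20 were positive, with a median difference of 0.74 and list medians of -0.39 and 0.23. By the test, 1 gene had a larger and 1 a smaller ratio. Endocuticle structural glycoprotein SgAbd-4 (CPIJ009326) had ratios of -0.86, -1.04, -2.13 and -1.03 at 6 h and of 1.28, 0.52, 0.96 and 4.09 at 18 h (difference 2.98, SE 0.69, limma adjusted p = 0.0117). A pupal cuticle protein (CPIJ019804) had a smaller ratio (0.46 ± 0.39 to -0.32 ± 0.24, SD, n = 4 arrays; limma adjusted p = 0.0324), and this call was lost without any one of 6 h replicates 1, 2 and 4 and 18 h replicates 2 and 3 (adjusted p = 0.0651 to 0.0859). Of 11 odorant-binding and sensory appendage proteins, small carriers of hydrophobic molecules, 2 had a larger and 1 a smaller ratio. The smaller one, odorant-binding protein CPIJ004634, went from 0.89 ± 0.24 to -0.17 ± 0.13 (SD, n = 4 arrays; limma adjusted p = 0.00113). General odorant-binding protein 99a (CPIJ017326) had the most negative difference of the list, -3.41, which did not pass the test (limma adjusted p = 0.0664). The larger ones were both named odorant-binding protein 56e, as was another gene (CPIJ016967) that was not called. CPIJ018957 had ratios of -1.69, -1.50, -1.32 and -1.64 at 6 h and of 0.26, 0.28, 0.17 and 1.88 at 18 h (difference 2.19, SE 0.32, limma adjusted p = 0.000754), and CPIJ012718 had a difference of 2.16 (limma adjusted p = 0.00077). The 2 genes carry 1 name and their probes may not measure them apart.

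Few genes of the immune lists were called. Of the 217 genes that the study's table puts under immunity, a wider set that also holds digestive proteases and hexamerin 2 beta, 4 had a larger and 19 a smaller ratio at 18 h, together 10.6%. Gambicin (CPIJ016084), an antimicrobial peptide of mosquitoes, was the only 1 of 4 antimicrobial peptides called, with ratios of -2.52, -0.67, -3.17 and -2.64 at 6 h and of 0.51, -0.06, 0.35 and -0.24 at 18 h (difference 2.39, SE 0.54, limma adjusted p = 0.0106). All 4 arrays were below the control at 6 h and near it at 18 h, and the call was lost without replicate 3 of both times (difference 2.01, adjusted p = 0.0732). Only gambicin's difference was positive among the 4 peptides, whose median difference was -0.57 and lowest -1.42. Another of the 4 was called lower than the control at 18 h. Of 31 pattern recognition proteins, 1 was called, gram-negative bacteria-binding protein 1 (CPIJ004320), which had ratios of -0.50, -0.27, -0.46 and 0.06 at 6 h and of -1.64, -2.15, -1.52 and -1.72 at 18 h (difference -1.47, SE 0.21, limma adjusted p = 0.000767). Its untreated level was 15.52 and 15.67, and its toxin level went from 15.22, with 1 array saturated, to 13.91 (limma adjusted p = 0.000806). Of 8 serpins, which inhibit proteases, and 9 caspases, the proteases of apoptosis, 0 were called, against 3 and 2 at an unadjusted limma p under 0.05. Caspase-3 (CPIJ012579) had the largest caspase difference, with ratios of 0.41, -0.26, -0.25 and 1.59 at 6 h and of 2.33, 1.27, 0.16 and 1.96 at 18 h, which overlapped (difference 1.06, SE 0.73, limma adjusted p = 0.355). Of 16 ubiquitin pathway enzymes, 1 had a larger and 1 a smaller ratio.

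Some genes with a larger ratio were lower at 18 h in both channels. The level of prolylcarboxypeptidase (CPIJ008878), a peptidase that removes the residue after a proline, went from 12.49 to 7.50 in untreated and from 8.68 to 6.39 in toxin-treated midguts, so that the ratio was larger at 18 h while the toxin level was lower (change -2.29, limma adjusted p = 1.82e-06). Its ratios were -3.98, -3.79, -3.57 and -3.91 at 6 h and -1.12, -1.23, -1.09 and -0.98 at 18 h, a difference of 2.70 (SE 0.10, limma adjusted p = 1.61e-07). A gene named synaptic vesicle protein (CPIJ017597) had ratios of -2.48, -2.35, -2.34 and -2.24 at 6 h and of 0.00, -0.18, -0.17 and 0.11 at 18 h (difference 2.29, SE 0.08, limma adjusted p = 1.56e-07), with levels of 10.28 and 6.95 in untreated and 7.92 and 6.90 in toxin-treated midguts. Of the 322 genes with a smaller ratio, 75 had a higher mean toxin level at 18 h, and 1 of them passed the test in the toxin channel, the hypothetical protein CPIJ007446, which was not well above background on any array of at least 1 group and is given without levels.

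The width of the whole response did not pass a test between the times. The SD of the log2 ratios over genes was 0.42 ± 0.0135 per array at 6 h and 0.398 ± 0.0184 at 18 h (SD, n = 4 arrays), a difference of -0.0222 (two-sided exact permutation p = 0.114 from all 70 assignments of the arrays, which allow no p below 0.0286). The sign of this difference turned in 5 alternative settings.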

How the data were processed

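Midgut RNA of untreated (Cy3) and toxin-treated (Cy5) larvae was compared on 12 Agilent arrays with 2 colours, 4 each at 6, 12 and 18 h. The intensity values are, per the file headers, pixel medians of each spot and its local background, which the authors extracted with Agilent Feature Extraction 11.5.1.1 and deposited without normalization. The log10 values are, per the file headers, the software's ratio of dye-normalized Cy5 over Cy3. The authors also deposited log2 values, as a table of toxin over control ratios corrected for background and normalized by loess in limma. The deposited files also mark, per spot, saturation, outliers, an uneven local background and whether the signal stood well above it.

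The background was corrected with limma's normexp (offset 50), fitted without spots of uneven local background, which were left missing: fitted on all 45220 spots, it narrowed the log ratios of replicate 3 to an interquartile range of 0.0395 at 6 h and 0.022 at 18 h. The 1417 controls and outlier spots were left out, ratios were normalized by loess, and the 2 to 6 spots of a gene were averaged. lmFit and eBayes were fitted to all 12 arrays with a mean for each time, which leaves 9 residual degrees of freedom, and the 18 h minus 6 h contrast was adjusted by the Benjamini-Hochberg method over 19751 genes. Levels per channel are log2 values after loess and Aquantile normalization. Which larvae each untreated RNA came from is not given in the sources used here. P-values measure the spread between these arrays.

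Genes and lists were chosen with earlier results of these data known. Named by rule were, among called genes that were measured and did not overlap between times, the 6 largest differences of named genes and the 2 largest of any gene in each direction, the reversals (at most 6 each way), and at most 2 genes of each of the 34 lists. Other genes are examples chosen after their values were seen. Gene names are those of the study's tables, since the reference table held 0 of the identifiers, and no probe sequences were used here. Alternatives were 4 background corrections, median centring, scale normalization, outlier spots kept, dim probes left out, the brightest probe, the scanner's and the deposited log ratios, 8 arrays only, a replicate block, an intensity trend, no fold threshold, and each array left out. In simulated data of as many genes and arrays, 46, 47, 50 and 50 of 50 genes were recovered at log2 differences of 1, 1.5, 2 and 3. There were 0 false calls. The simulated noise was normal, independent between genes and arrays, and of each gene's fitted spread. It held no slide effect and no outlying array, so the number of false calls in the real data cannot be read from it. R 4.3.3, limma 3.58.1, statmod 1.5.0, Python 3.11.15 and matplotlib 3.10.9 were used.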

Additional observations from a re-analysis of the deposited data

Results flagged for a closer look

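The contrast of 18 h with 6 h was itself a test of a difference between times, and 558 genes had a larger and 322 a smaller log2 ratio at 18 h. Among the genes called at both times with opposite signs, the differences were 3.43 for CPIJ008664, 2.43 for NHP2 (CPIJ005033), 2.36 for H/ACA ribonucleoprotein complex subunit 4 (CPIJ000795), 2.23 for CPIJ015882, 2.21 for CPIJ011188 and 2.01 for the cell growth-regulating nucleolar protein (CPIJ012225). They were -2.44 for CPIJ004816, -2.33 for regucalcin (CPIJ007230) and -2.16 for N-acetyl neuraminate lyase (CPIJ000182).

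Of 132 groups of 4 arrays tested among the named genes, 7 had 1 array far from the others by Dixon's criterion, and chance gives about 1 in 20 groups. On 18 h replicate 4, the 16 kDa salivary peptide (CPIJ013165) had a log2 ratio of 2.43 against a nearest value of 0.10, and the odorant-binding protein 56e genes CPIJ012718 and CPIJ018957 had 1.81 against 0.22 and 1.88 against 0.28. On 18 h replicate 3, juvenile hormone epoxide hydrolase 1 (CPIJ000992) had -1.41 against -1.72. On 6 h replicate 3, SgAbd-4 (CPIJ009326) had -2.13 against -1.04 and acyl-CoA oxidase CPIJ003061 had 0.05 against 0.30. On 6 h replicate 4, bile salt-activated lipase (CPIJ007828) had 0.81 against 0.27.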

How the results depend on the processing

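Of the 65 genes chosen by rule, none changed direction in any setting that was run. For the 59 of them that were called, this was fixed in advance wherever arrays were left out. They had been chosen among genes whose arrays did not overlap between the times. The 8 arrays alone, the replicate block, the intensity trend and the lack of a fold threshold leave the difference itself unchanged. Among these 59 genes, 11 lost their call with normexp fitted on all spots, 11 with the deposited log ratios, 7 without replicate 3 of both times, 6 with median centring, 6 with the scanner's log ratio, and 0 to 4 in each other setting. Normexp fitted on all spots gave 363 larger and 192 smaller ratios with 4 lower-to-higher reversals. The deposited log ratios gave 373 and 206 with 4. Median centring gave 965 and 187 with 24. Lower-to-higher reversals numbered 11 with plain subtraction, 11 with an offset of 16, 14 with scale normalization, 12 with the brightest probe and 15 with the scanner's log ratio, and the 8 arrays alone gave 5 higher-to-lower ones. Without a fold threshold there were 2203 larger and 1673 smaller ratios and 300 and 170 reversals. With single arrays left out, the counts lay at 489 to 634 and 281 to 339, with 5 to 14 and 2 to 4 reversals, and without replicate 3 of both times they were 519 and 278 with 12 and 2. The toxin channel alone, an alternative added after seeing the data, gave 525 higher and 746 lower genes, or 486 and 880 with quantile normalization. The difference in SD was 0.00118 with plain subtraction (exact permutation p = 0.914), 0.0466 with median centring (0.0571), 0.067 with scale normalization (0.0286), 0.0593 with the scanner's log ratio (0.0571) and 0.00411 with the deposited ones (0.914). The deviations of same-numbered arrays of the 2 times correlated with r of 0.06, 0.186, 0.36 and -0.106, against -0.411 to 0.382 for other numbers, and 1 of the 4 arrays at 18 h correlated best with its own number, so the numbers were not taken as pairs. A replicate block gave 585 and 347 genes, among them 5 of 12 fat body markers and 1 of 6 juvenile hormone breakdown enzymes, and juvenile hormone esterase (CPIJ002073) was then not called (adjusted p = 0.0623). The cause of these changes was not tested. The number of arrays, 4 a time, limits precision, and 554 of the larger and 304 of the smaller ratios came from genes neither dim nor saturated on all 4 arrays of a group.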
